A study of Mus musculus with 2 samples.

Results

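Sites bound by DLX2 were examined around 35 genes of fibroblast growth factor (FGF) signalling: 20 FGF genes, 5 receptor genes, the adaptor gene *Frs2*, 6 genes of feedback inhibitors and 3 genes of ETS transcription factors. The members were chosen by name, as the FGF pathway genes of the mouse autosomes listed for this purpose. No value of the peak lists set the choice, though earlier results of these data were known. They are 35 of 20560 protein-coding genes on the autosomes. DLX2 is a homeodomain transcription factor of the developing jaws, and its sites were profiled by CUT&Tag, in which an antibody directs a transposase to cut and tag the DNA around its target. The tissue was the maxillary process, from which most of the upper jaw grows, of wildtype C57BL/6 embryos at E12.5. The 2 libraries form 1 group of 2 replicates with the same genotype, age and antibody, without a treatment. No control library and no other genotype was used here, so every value below describes this group and no test between groups was made. Nothing in the labels says whether the replicates came from separate embryos or litters, and a peak list holds no expression values with which the labelled tissue could be checked.

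FGF ligands bind receptor tyrosine kinases together with heparan sulphate, and the adaptor FRS2 passes the signal to the RAS and MAP kinase cascade. The ETS factors ETV1, ETV4 and ETV5 act at the end of that cascade, whereas Sprouty and SPRED proteins and the phosphatase DUSP6 restrain it. In the facial processes, FGF8 from the ectoderm promotes survival and outgrowth of the underlying mesenchyme. FGF10 and FGF18 are mesenchymal ligands of the developing palate and facial skeleton.

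A peak is a stretch of mm10, the GRCm38 build, where the authors' peak caller found more fragments than in the local background of the same library. Peaks were counted for a member when they lay inside its RefSeq extent or within 100 kb of it, a span called its window. Where peaks of both replicates overlap by 1 bp or more, the stretch in common is called a shared region. The fold of a peak is the deposited ratio of its summit to the local background, and the number of fragments at a summit was recovered from the fold and the deposited p. Where folds or counts of peaks come in pairs below, replicate 1 stands first and replicate 2 second.

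The promoter of *Fgf4* was the only member promoter with a peak among the 33 promoter windows, of 27 members, that RefSeq gave, and its sequence is therefore shown. *Fgf4* encodes a ligand best known from the early embryo and the limb bud. The peak was called in replicate 2, at 144861333 to 144861460 on chromosome 7, with a fold of 4.02 and 9 fragments at a summit 17 bp before the start of the gene. Capitals mark the 53 bases before the start that the peak covered, in the 250 bases chr7:144861136-144861385 on the plus strand of GRCm38.p6:
Fgf4: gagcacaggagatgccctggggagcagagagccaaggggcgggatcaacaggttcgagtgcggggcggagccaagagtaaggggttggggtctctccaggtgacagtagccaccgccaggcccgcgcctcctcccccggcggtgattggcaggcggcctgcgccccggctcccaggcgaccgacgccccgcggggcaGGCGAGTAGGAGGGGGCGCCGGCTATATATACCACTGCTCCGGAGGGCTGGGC

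Replicate 1 had no peak in that window. Each promoter window spans 250 bases before and 50 after a start. In replicate 2, 1 of the 33 windows held a peak, against 2.74% of 31396 autosomal windows. In replicate 1 and among the shared regions 0 of 33 did, against 0.812% and 0.169%. The core of many homeodomain sites, TAATT, was searched for on both strands, where a TAATTA counts as a match on each strand. It was absent from the *Fgf4* window, which was 69.7% G and C. Of the 33 member windows 4 held it, or 12.1%, against 27.0% of all autosomal windows. The member windows had a median of 62.7% G and C, against 53.0% over all windows, and the part of base composition in the motif share was not tested. The matches lay in the windows of *Fgf6*, *Fgf7*, *Fgfr2* and a start of *Etv1*, none of which held a peak. Just outside the genes, within 2 kb of an end, replicate 2 had peaks at *Fgf2*, *Fgf4*, *Fgf15*, *Fgf22* and *Spred1* and replicate 1 at *Fgfrl1*, with no shared region among them. The share of coding genes with such peaks is not given here.

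Most of the FGF genes had peaks in their neighbourhood in each replicate, and somewhat fewer had a shared region. In replicate 1, 32 of the 35 members had a peak inside or within 100 kb, against 86.3% of autosomal coding genes. In replicate 2 all 35 did, against 93.7%. A shared region lay in the windows of 22 members, or 62.9%, against 63.2% of coding genes. The share of members was thus close to that of coding genes at large. When at least 50% of each peak had to be shared, 19 members had such a region, or 54.3% against 47.2% of coding genes. Windows held a median of 5 peaks in replicate 1 and 8 in replicate 2, and a median of 1 shared region. Over all coding genes these medians were 3, 9 and 1.

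The windows of neighbouring members overlap, since *Fgf3*, *Fgf4* and *Fgf15* share a cluster and *Fgf6* lies beside *Fgf23*. Counted once, the windows formed 32 blocks of 8.88 Mb with 139 peaks of replicate 1, 281 peaks of replicate 2 and 38 shared regions. These are the counts behind the values below, out of 28061 and 62093 peaks and 10921 shared regions in all. The deposited lists reach down to a −log10 q of 1.0 and are longer than the peak sets described in the study, and how they relate to those sets is not given in the sources used here. The replicate lists differ in length throughout the genome, and 32 of the 35 members had more peaks in replicate 2, with equal counts for *Spry2* and *Fgf20*. The exception was *Fgf8*, with 7 peaks in replicate 1 and 5 in replicate 2.

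**Figure D1:**
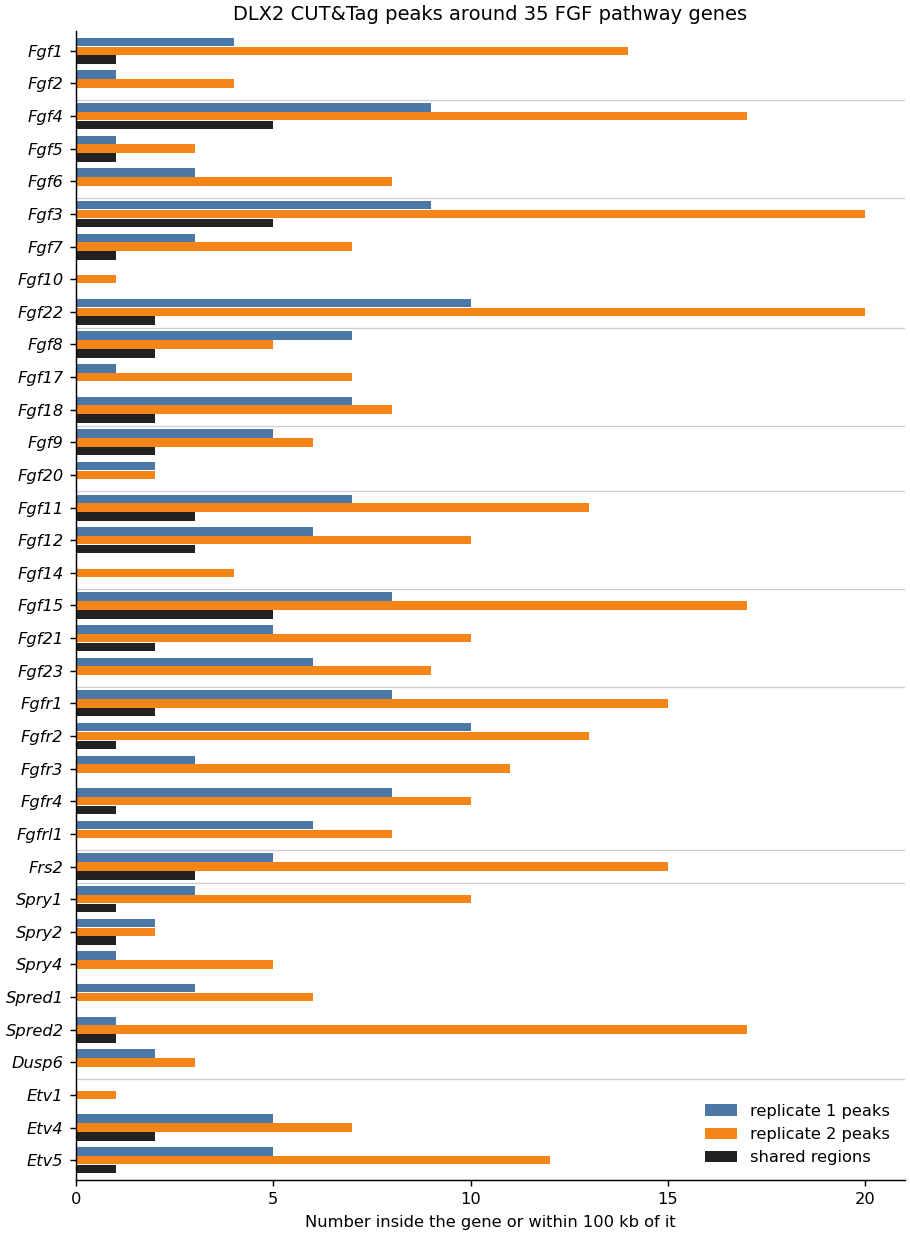
Peaks of replicate 1, peaks of replicate 2 and shared regions (bars, counts on the horizontal axis) inside or within 100 kb of each of the 35 members, in the order of their roles, with grey lines between groups. *Fgf3* and *Fgf22* reach 20 peaks in replicate 2, *Fgf3*, *Fgf4* and *Fgf15* have 5 shared regions each, and *Fgf10*, *Fgf14* and *Etv1* have no replicate 1 peak.

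Among the secreted ligands, the cluster of *Fgf3*, *Fgf4* and *Fgf15* on chromosome 7 had the highest counts of shared regions. *Fgf3* takes part in ear and tooth development, and *Fgf15* encodes the mouse counterpart of the endocrine factor FGF19. *Fgf3* had 9 peaks in replicate 1 and 20 in replicate 2. *Fgf4* had 9 and 17, and *Fgf15* had 8 and 17. Each of the 3 genes had 5 shared regions, 4 of them for all 3 genes together, so these counts are not independent. Over the 262 kb of the joined windows the lists held 11 and 22 peaks and 6 shared regions, or 22.9 shared regions per Mb.

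The 6 shared regions of the cluster were weak. Their folds lay between 3.80 and 5.31 in replicate 1 and between 3.26 and 4.48 in replicate 2. The closest to *Fgf3*, at 144836026 to 144836043, lay 2.57 kb outside the gene and 2.58 kb upstream of its start, with folds of 4.53 and 4.48. It was an overlap of 18 bp, with summits 238 bp apart. *Fgf15* had shared regions 5.72 kb and 13.9 kb from its ends. The other 3 were nearer to neighbouring genes, namely *Ano1*, *LTO1* and *Ccnd1*. No shared region lay inside any of the 3 FGF genes, and only 15.4% of coding genes held one. With a fold of at least 5 asked of both replicates the cluster held 0.

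Of the ligands that signal to epithelium, *Fgf7*, *Fgf10* and *Fgf22*, the counts spread widely. *Fgf10*, the mesenchymal ligand of the FGFR2b receptor, had 0 peaks in replicate 1, 1 in replicate 2 and no shared region, with no other coding gene in its window. *Fgf7* had 3 and 7 peaks and 1 shared region. That region lay at 126029041 to 126029162 on chromosome 2, within the neighbouring gene *Fam227b* and 5.56 kb upstream of the start of *Fgf7*, with folds of 6.48 and 5.63. *Fgf22* had 10 peaks, 20 peaks and 2 shared regions, in a window that touches 13 other coding genes. Both of its shared regions lay inside other genes.

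In the FGF8 subfamily, 2 of 3 genes had shared regions, all at a distance. None of the genes held one inside, and only 15.4% of coding genes did. *Fgf8*, the ectodermal ligand, had 2 shared regions, 54.8 kb and 89.0 kb away, on the side of *Fbxw4*. *Fgf18*, needed for bone and palate, had 7 and 8 peaks and 2 shared regions. The stronger of these, at 33060458 to 33060670 on chromosome 11, lay 56.3 kb beyond the gene, with folds of 8.31 and 6.47, the former the highest replicate 1 fold of the 38 shared regions. The nearest coding gene of both was *Fgf18* itself. *Fgf17*, close in sequence to *Fgf8*, had 1 peak in replicate 1 and 7 in replicate 2, with no shared region.

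The remaining secreted ligands had 0 to 2 shared regions each, against a median of 1 over all coding genes. *Fgf9*, a ligand of epithelium and mesothelium, had 5 and 6 peaks and a shared region on either side, 40.2 kb and 40.6 kb away. *Fgf20*, its relative, had 2 peaks in each replicate and none shared. *Fgf5*, a regulator of the hair cycle, had 1 peak, 3 peaks and 1 shared region 18.3 kb away, at 98295307 to 98295432 on chromosome 5, with folds of 5.77 and 5.71 and summits 5 bp apart. *Fgf1*, the acidic founding member of the family, had 4 peaks, 14 peaks and 1 shared region inside the gene. *Fgf2*, the basic one, had 1 and 4 peaks, *Fgf6*, expressed in muscle, 3 and 8, and *Fgf23*, the endocrine regulator of phosphate, 6 and 9, each without a shared region. *Fgf21*, the endocrine factor of liver, had 5 peaks, 10 peaks and 2 shared regions, both inside other coding genes.

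The intracellular FGF proteins are not secreted and act on sodium channels in neurons, and 2 of their genes are the longest members. *Fgf12*, of 595 kb, had 6 and 10 peaks and 3 shared regions. *Fgf14*, of 703 kb, had 0 peaks in replicate 1 and 4 in replicate 2. Only 2 of these lay inside it, and the closest replicate 1 peak to either was 1100 kb away. The short gene *Fgf11* had 7 peaks, 13 peaks and 3 shared regions in a window that touches 19 other coding genes, and none lay inside *Fgf11*. Of its 3 shared regions, 2 fell within the same replicate 2 peak, in *Slc35g3*.

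All 5 receptor genes had peaks in each replicate, against 86.3% of coding genes in replicate 1 and 93.7% in replicate 2. All 5 held a replicate 2 peak inside the gene, against 50.7% of coding genes. The replicates seldom coincided. Most peaks around coding genes at large were likewise not met by the other replicate. In the windows of all autosomal coding genes, 38.4% of replicate 1 peaks and 16.9% of replicate 2 peaks were met. Whether the receptor genes differ from this was not tested. *Fgfr1*, a main receptor of mesenchyme, had 8 peaks in replicate 1 and 15 in replicate 2. *Fgfr2*, needed in palate and limb, had 10 and 13. *Fgfr3*, a brake on cartilage growth, had 3 and 11, *Fgfr4* 8 and 10, and *Fgfrl1*, a receptor without a kinase, 6 and 8. Shared regions numbered 2 for *Fgfr1*, 1 for *Fgfr2* and 1 for *Fgfr4*, and *Fgfr3* and *Fgfrl1* had 0.

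Inside *Fgfr2* there were 5 peaks in each replicate and not 1 overlap. The replicate 1 peaks lay between 1.01 and 10.9 kb from the nearest replicate 2 peak. Their folds were 3.26 to 4.33, with 4 to 6 fragments at the summit, and those of replicate 2 were 2.91 to 4.30, with 6 to 10 fragments. Inside *Fgfr1* the counts were 2 and 6, again with no overlap and with the closest pair 0.883 kb apart. *Fgfr3* held 2 replicate 2 peaks with 15 fragments each and no replicate 1 peak within 46.9 kb of either. The receptor with a shared region inside was *Fgfr4*, at 55155804 to 55156008 on chromosome 13, 3.09 kb downstream of the start, with folds of 4.71 and 4.75 and summits 15 bp apart.

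The adaptor gene *Frs2* had 5 and 15 peaks and 3 shared regions. The region inside *Frs2* lay at 117139790 to 117140173 on chromosome 10, 8.49 kb downstream of the start, with folds of 6.06 and 5.95. The summits of the replicates lay 301 bp apart there. Of the 6 members with 3 or more shared regions, *Frs2* and *Fgf12* were those with a shared region inside the gene.

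The feedback genes had no more than 1 shared region each, against a median of 1 over all coding genes. Of these 6 genes, 3 had such a region, against 63.2% of coding genes. *Spry1* had 3 peaks in replicate 1 and 10 in replicate 2, *Spry2* 2 and 2, *Spry4* 1 and 5, *Spred1* 3 and 6, *Spred2* 1 and 17, and *Dusp6* 2 and 3. Sprouty and SPRED genes are switched on by FGF signals and limit them. *Spry1*, *Spry2* and *Spred2* had 1 shared region each, and *Spry4*, *Spred1* and *Dusp6* had 0.

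*Spry2* was the short gene with a shared region inside. Its extent is 4.87 kb, and the region lay at 105893217 to 105893415 on chromosome 14, 3.50 kb downstream of the start, with folds of 4.10 and 4.2. The depth behind it was low, with 5 fragments at the summit in replicate 1 and 8 in replicate 2. *Spred2* differed most between the lists, and its 1 replicate 1 peak was also its shared region, 98.9 kb away.

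Of the ETS factor genes, *Etv1* had 0 peaks in replicate 1 and 1 in replicate 2 over its 90.4 kb and flanks, with no other coding gene in the window. *Etv4* had 5 peaks, 7 peaks and 2 shared regions, 21 kb and 75.8 kb away. *Etv5* had 5 peaks, 12 peaks and 1 shared region, 98.9 kb away. No shared region lay inside an ETS gene of the list, and only 15.4% of coding genes held one.

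**Figure D2:**
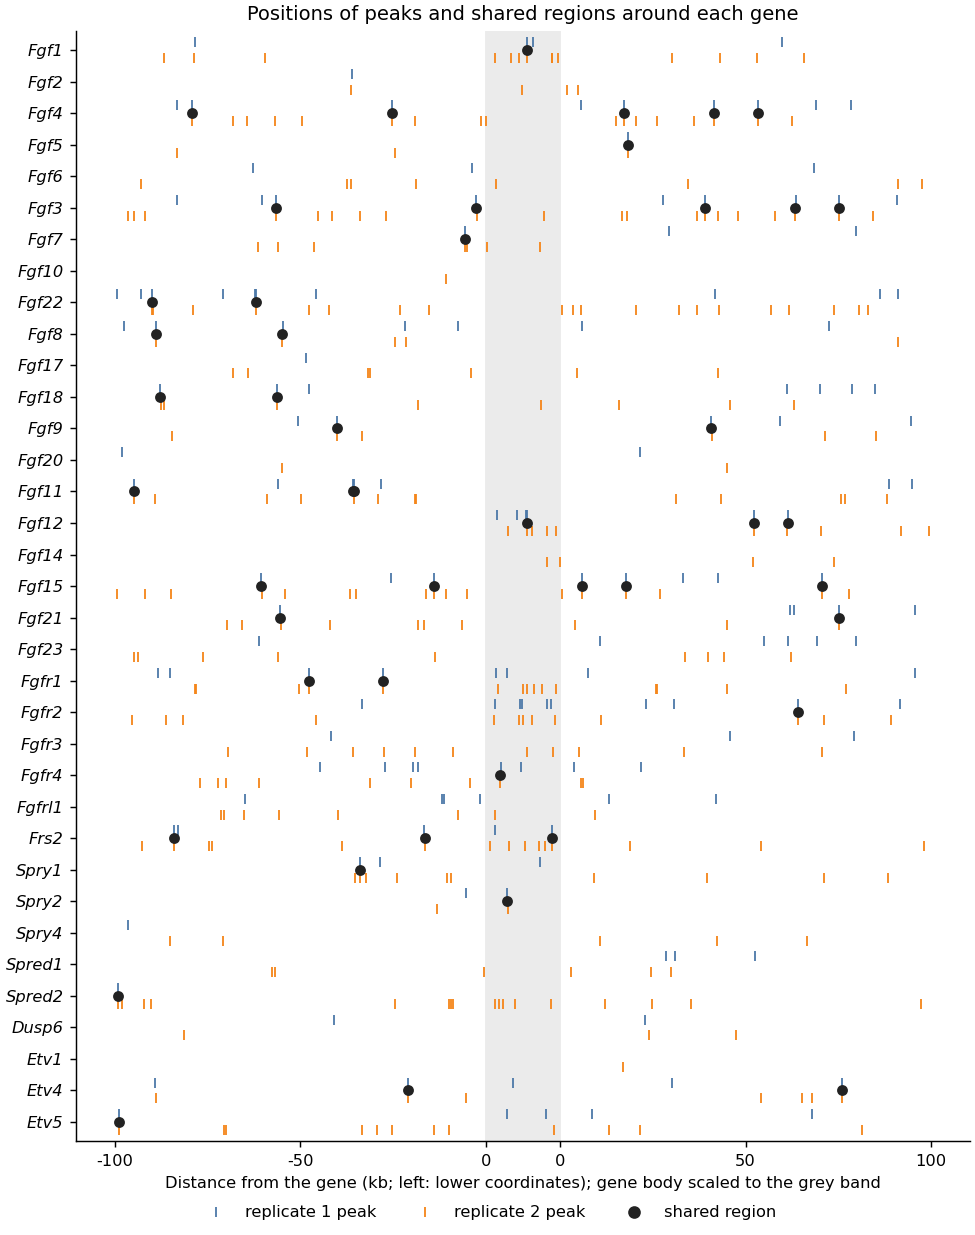
Position of every replicate 1 peak (blue), replicate 2 peak (orange) and shared region (black dot) around the 35 members, as the distance in kb from the gene, with each gene body scaled to the grey band. Black dots fall inside the band for *Fgf1*, *Fgf12*, *Fgfr4*, *Frs2* and *Spry2*, and the *Fgfr2* band holds 5 marks of each replicate without a dot.

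The 38 shared regions were mostly outside the FGF genes. A member held 5 of them, another coding gene held 11, and 22 lay outside coding genes. A member was the nearest coding gene for 14. More than 50 kb separated 18 of them from the nearest member. The 5 members with a shared region inside were 14.3% of the list, against 15.4% of coding genes. In replicate 1 a peak lay inside 10 members, or 28.6% against 32.1% of coding genes, and in replicate 2 inside 18, or 51.4% against 50.7%. Counting both replicates, 15 members held no peak, a count for which no share over coding genes is given here.

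Ranked by the lower of the replicate folds, the first 4 regions lay far from the genes. The first was at 28805420 to 28805764 on chromosome 16, 52.3 kb upstream of *Fgf12* and nearer to *Mb21d2*, with folds of 8.06 and 11.3. A region 99.1 kb upstream of *Spred2*, at 19825094 to 19825559 on chromosome 11, had folds of 7.18 and 8.18 and summits 14 bp apart. *Spred2* was its nearest coding gene. On chromosome 10, a region 84.0 kb beyond *Frs2* at 116985832 to 116986085 had folds of 7.17 and 9.37, nearer to *Best3*. One on chromosome 16 at 22282206 to 22282390, 98.9 kb beyond *Etv5* and nearer to *Tra2b*, had folds of 6.49 and 8.57. These stood on 8 to 13 fragments in replicate 1 and 17 to 26 in replicate 2, and in replicate 2 no other shared region of the list had as many.

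Inside the genes, the strongest shared region was in *Fgf12*, at 28485495 to 28486036 on chromosome 16. It had folds of 6.23 and 8.09, with summits 254 bp apart. It lay 39.7 kb upstream of the nearest of the 4 starts that RefSeq gave for this gene, within the longer transcripts. The region in *Fgf1*, at 38888583 to 38888749 on chromosome 18, had folds of 5.25 and 4.0. The extent of *Arhgap26* overlaps *Fgf1* there, so that region belongs to both extents. Outside coding genes, a region at 25470980 to 25471244 on chromosome 8 had folds of 6.50 and 5.71. It lay 47.5 kb from *Fgfr1* and nearer to the coding gene *Gm39147*.

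The fold in the lower replicate ranged from 3.21 to 8.06, with a median of 4.55, while over the 10812 autosomal shared regions it reached 20.6, with a median of 4.51. A fold of at least 5 in both replicates was found in 11 of the 38, or 28.9%, against 35.1% of all autosomal shared regions. The summits held a median of 7 fragments in replicate 1, from 5 to 13, and of 11 in replicate 2, from 7 to 26. Replicate 2 had the higher fold in 15 of the 38, or 39.5%, against 49.6% of autosomal shared regions.

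**Figure D3:**
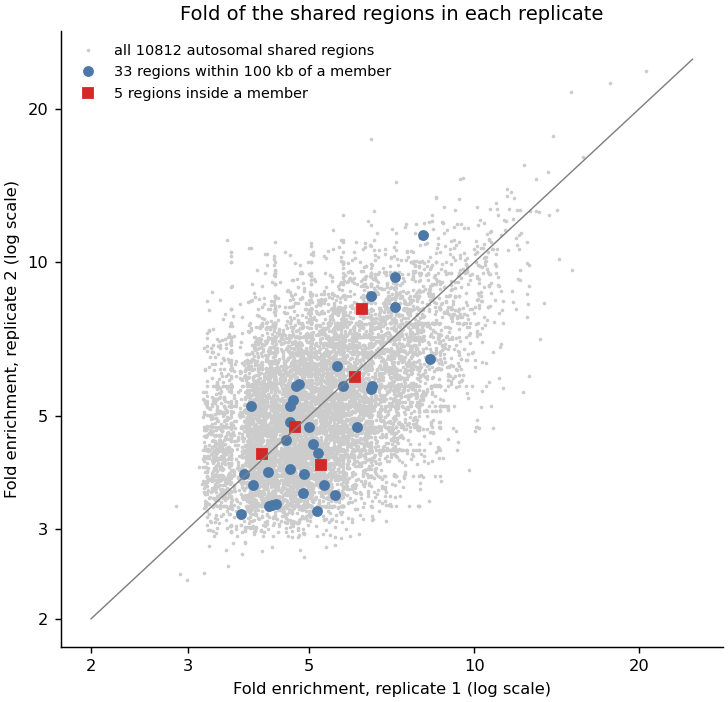
Fold enrichment in replicate 1 (horizontal) against replicate 2 (vertical), both on log axes, for the 5 shared regions inside a member (red squares), the 33 within 100 kb of one (blue circles) and all 10812 autosomal shared regions (grey), with the line of equal folds. The members' regions sit in the lower and middle part of the cloud, with lower folds from 3.21 to 8.06.

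The share of peaks found in both replicates was lower around the FGF genes than around coding genes at large, though no test was made. Replicate 2 met 38 of the 139 peaks that replicate 1 had in the windows, or 27.3% (95% Wilson interval 20.6 to 35.3%). In the windows of all autosomal coding genes the share was 38.4% (interval 37.8 to 39.0%), which lies above the members' interval. For the 281 peaks of replicate 2 in the windows, 37 were met in replicate 1, or 13.2% (interval 9.71 to 17.6%), against 16.9% (interval 16.6 to 17.3%), and these intervals overlap. Peaks of neighbouring sites share their library and are not independent, and the intervals cover counting error only. The median fold in replicate 1 was 4.33 both in the members' windows and in those of coding genes, and the median number of fragments was 6 in both. In replicate 2 the median fold was 3.90 in the members' windows and 4.08 in those of coding genes, with 9 fragments in both.

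Density gave the same order for shared regions and the opposite order for each list alone. The members' windows held 15.7 replicate 1 peaks per Mb, 31.6 replicate 2 peaks per Mb and 4.28 shared regions per Mb. Over the joined windows of all autosomal coding genes the densities were 13.7, 30.3 and 5.26. The ratio of members to coding genes was 1.15 in replicate 1, 1.04 in replicate 2 and 0.814 for shared regions. When at least 50% of each peak had to be shared, the densities of shared regions were close, at 2.93 per Mb around the members and 3.02 around coding genes. With windows of 50 kb the members stayed below coding genes, at 3.52 shared regions per Mb against 5.26. At a fold of at least 5 the densities were 1.24 against 1.77. At a −log10 q of at least 5 they were 0.563 against 0.789. With windows of 200 kb the direction for shared regions turned, to 5.35 per Mb against 5.13. Without the *Fgf3*, *Fgf4* and *Fgf15* cluster the density of shared regions was 3.71 per Mb. That of replicate 1 was then 14.9 and that of replicate 2 was 30.1, the last now below the 30.3 of coding genes. Without *Fgf12* and *Fgf14*, the longest members, the density of shared regions was 4.87 per Mb, nearer to the 5.26 of coding genes.

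Density was next read by distance from the gene. Inside the genes the members had 9.24 peaks per Mb in replicate 1, 20.6 in replicate 2 and 2.10 shared regions per Mb, against 14.5, 33.0 and 5.18 for coding genes. These values rest on *Fgf12* and *Fgf14*, which make up most of the length. Without this pair, the densities were 16.6, 38.8 and 3.69 per Mb, so that replicates 1 and 2 moved above the values for coding genes and shared regions stayed below. Between 50 and 100 kb from the members there were 6.57 shared regions per Mb, against 5.80. Here a region is counted once for each gene it lies near, so the regions of the chromosome 7 cluster enter more than once. Between 50 and 100 kb they enter for each of *Fgf3*, *Fgf4* and *Fgf15*. The value without the cluster is not given here, and the higher density of the members in that range may rest on it.

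**Figure D4:**
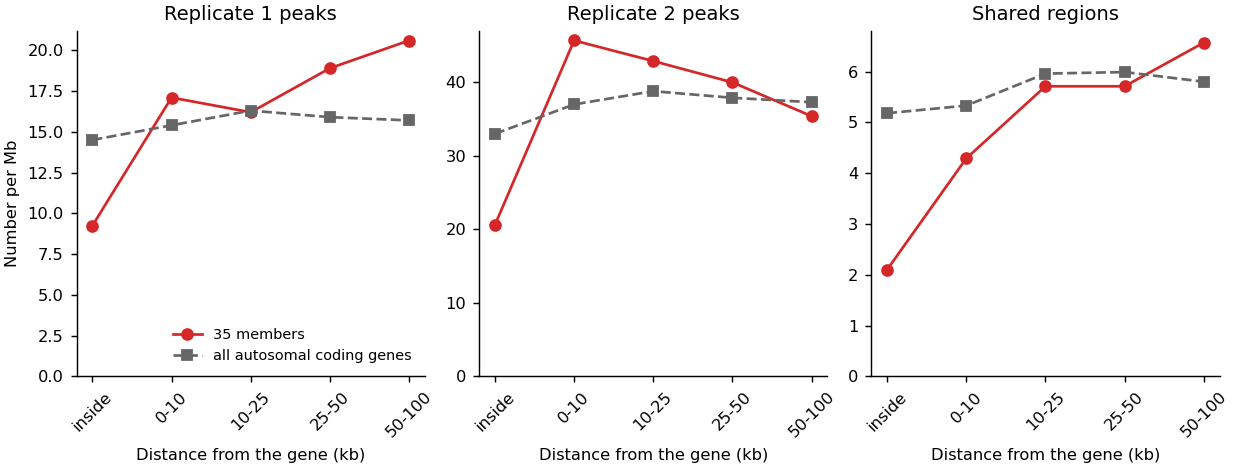
Number per Mb (vertical, from 0) of replicate 1 peaks, replicate 2 peaks and shared regions, in 3 panels, inside the gene and by distance from it in kb, for the 35 members (red circles) and all autosomal coding genes (grey squares). Shared regions rise from 2.10 per Mb inside the members to 6.57 per Mb at 50 to 100 kb, while the values for coding genes stay between 5.18 and 5.99. A region counts once for each gene it lies near, so regions of the chromosome 7 cluster enter more than once.

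Since a longer gene has a longer window, each member was set beside the 200 autosomal coding genes nearest to it in length. Of the 35 members, 13 had more shared regions than the median of these genes, 9 had as many and 13 had fewer. *Fgf4* and *Fgf15* stood highest, with 5 shared regions against a median of 1, and 4.0% of genes of like length had as many or more. For *Fgf3* that share was 6.0%. These 3 are the members above the 90th percentile of their like-length genes, and they share 4 of their regions. *Fgf11* followed with 3 shared regions, at 18.5%, and *Frs2* with 3, at 21.5%.

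At the other end were long or isolated genes with hardly a peak. *Fgf14* had 0 replicate 1 peaks against a median of 7 for genes of like length, of which 3.0% had as few. Its 4 replicate 2 peaks compared with a median of 13, and 13.0% of genes of like length had as few. *Etv1* had 0 and 1 peaks against medians of 4 and 10, and *Fgf10* had 0 and 1 against 3 and 8. In replicate 2, 5.0% of genes of like length had as few peaks as *Etv1*, and 9.5% as few as *Fgf10*. A shared region was missing for all 3, as for 16.0%, 27.0% and 36.5% of genes of like length in the order *Fgf14*, *Etv1* and *Fgf10*. *Fgf20* had 2 peaks in each replicate, and 32.5% and 8.5% of genes of like length had as few.

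The median counts rose with the number of neighbouring genes, and the share of members with a shared region did not. The 12 members with 0 to 1 other coding genes in the window had a median of 2 peaks in replicate 1 and 4.5 in replicate 2. The 13 members with 2 to 4 such genes had medians of 5 and 9, and the 10 members with 5 to 19 had 5.5 and 10.5. The median number of shared regions was 0.5, 1 and 2 in the same order, and 6, 10 and 6 members of these groups had at least 1. The part of gene density in the counts of single members was not tested.

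**Figure D5:**
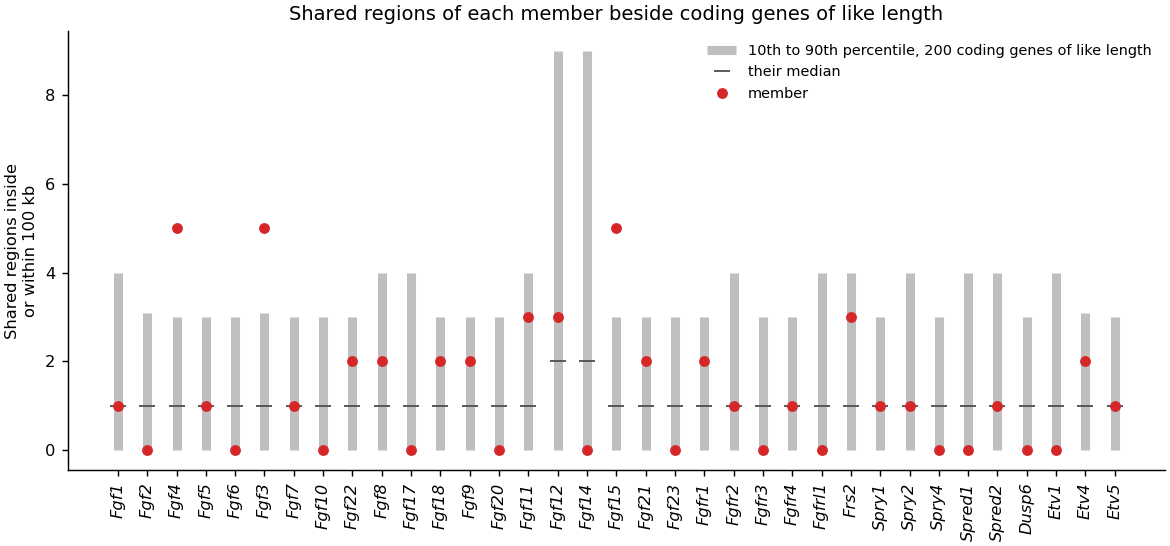
Shared regions inside or within 100 kb (vertical, counts) of each member (red dots) beside the median (dash) and the 10th to 90th percentile (grey bar) of the 200 autosomal coding genes nearest in length. *Fgf3*, *Fgf4* and *Fgf15* lie above their bars at 5, and the other 32 members lie within theirs.

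Other genes of FGF signalling were counted in the same way, from a list that holds co-receptors, adaptors, kinases of the cascade, further feedback genes, heparan sulphate enzymes and immediate early targets. Of the 46 genes listed, 45 were found in the annotation, 39 of them on the autosomes. A shared region lay in the windows of 29 of the 39, or 74.4%, against 63.2% of coding genes, and inside 8 of them, or 20.5% against 15.4%. These 39 genes were longer, with a median extent of 58.1 kb against 17.6 kb for coding genes, and the part of length in the shares was not tested. Their windows had a median of 5 peaks in replicate 1, 11 in replicate 2 and 1 shared region. *Grb2*, the adaptor that links FRS2 to RAS activation, had the most shared regions, at 5, and *Sulf2*, which trims heparan sulphate, had 4. A further 7 genes had 3 each. On the X chromosome, where both lists are sparse, 1 of 6 genes of this list had a shared region, or 16.7%, against 12.0% of X-linked coding genes.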

How the data were processed

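DLX2 CUT&Tag was measured in 2 libraries of 1 group. Per the study's methods, reads were trimmed with Trim Galore and aligned to mm10 with bowtie2; the submitters' processing notes instead name Trim Galore 0.4.5, Bowtie 1.1.2 and MACS2 2.2.7. The settings of the peak caller and any filter on duplicates or listed regions are not given in the sources used here. The labels describe sonicated chromatin, the methods tagging by transposase. The authors called peaks for each replicate on its own, which gave the deposited fold, a ratio to the local background. The −log10 p and −log10 q are the peak caller's, as deposited; the deposited score is the whole part of 10 times the −log10 q. The summit positions are deposited as bases from the peak start.

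Library depth is not given in the sources used here. Fragments were recovered by taking fold as fragments plus 1 over background plus 1, with p the upper Poisson tail; 100% of peaks gave a whole number within 0.001, and the lowest background was 0.387 fragments in replicate 1 and 1.10 in replicate 2. Weak peaks thus rest on few fragments, and replicate 1 on fewer.

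Gene extents came from RefSeq GRCm38.p6. Genes listed before position 3000000 of chromosomes 1 to 19 and X were left out. All members were found by symbol. Starts and strand were known for 27 of them, from the RefSeq promoter table. Shared regions, windows, like-length genes and alternatives were computed with Python 3.11.15 with matplotlib 3.10.9, statsmodels 0.14.6, scipy 1.17.1, pandas 2.3.3 and numpy 2.4.6, and the counting was tested on simulated data. All 35 members were named; coordinates were given for shared regions inside a member or within 2 kb of it and for the 10 highest by the lower of both folds, and the other regions with coordinates were chosen after their values were seen. The members and lists were chosen with earlier results of these data known. No genome sequence was used here, so sequences of peaks outside promoters were not analysed.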

Additional observations from a re-analysis of the deposited data

How the results depend on the processing

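With 1 group and no control library, background was not measured, and most peaks rest on few fragments, so that a missing peak says only that none was called at this depth. Of 47 alternative values for the main counts, 17 stayed within 1.5 times and 30 did not. Peaks with a −log10 q of 5 or more left 5 members with a shared region, or 14.3% against 15.7% of coding genes. They left 5 regions, 0 inside a member, 0.563 per Mb and a median of 0 peaks per window in each replicate. At a fold of at least 5 there were 9 members, or 25.7% against 30.0% of coding genes. That setting left 11 regions, 2 inside, 1.24 per Mb and a median of 1 peak in each replicate. With 50 kb there were 20 regions and medians of 2 and 5 peaks, and with 200 kb there were 80 regions and medians of 8 and 16. These changes follow from fewer peaks or other window sizes. Giving a region to its nearest coding gene, whatever the distance, left 14 members, or 40% against 27.0% of coding genes, and 21 regions. Taking 1 replicate alone in place of shared regions gave 32 to 35 members, 139 to 281 peaks, 22 to 49 inside a member and 15.7 to 31.6 per Mb. Leaving out *Fgf12* and *Fgf14*, chosen after the data were seen, moved the densities inside members to 16.6, 38.8 and 3.69 per Mb in replicate 1, replicate 2 and shared regions. Asking for 50% of each peak changed no main count by more than 1.5 times but turned the comparison of shares, to 54.3% of members against 47.2% of coding genes, and fewer or more genes of like length left 13 members above the median and 14 below. Of 210 counts for single members under settings other than leaving out a replicate, 92 moved by more than 1.5 times, and of all 210, 77 were lower and 27 higher. No paired analysis was possible because the samples form 1 group.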
